A study of Mus musculus with 8 samples.

Results

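Neutrophil adhesion genes were examined in bone marrow neutrophils from mice with Padi4 (WT, wild type) and without it (Padi4 KO, knockout), at rest and after R848, a small-molecule agonist of Toll-like receptor 7 (TLR7). The 9 genes were chosen by symbol, and all 9 were found among the 24421 genes of the count table. They were Itgb2, Itgam and Itgal, which encode the beta2 integrin chain and 2 of its alpha partners, Icam1, Itgb1, Selplg, Cd44, Fermt3 and Pecam1. All 9 passed the filter on low counts (at least 1 count in 2 or more libraries), as did 12254 genes in all. Padi4 encodes the enzyme PAD4, which converts arginine to citrulline in histones and other proteins. The study measured how neutrophils with and without it attach to ICAM-1 after TLR7 stimulation.

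RNA came from neutrophils of 8-week-old mice on the C57BL/6 background, all female, and the Padi4-/- line was made by deleting exon 1 of the gene. Cells were purified magnetically from bone marrow and were either left unstimulated or given R848 at 1 µg/ml for 6 h, which gave 4 groups of 2 libraries (WT unstimulated, WT with R848, Padi4 KO unstimulated, Padi4 KO with R848). The titles give 0 h for the unstimulated cells and the protocol 6 h. If the titles hold, every R848 response also contains 6 h of culture. The study's methods say that samples were run in duplicate, and nothing says whether the libraries of a group came from separate animals or are duplicates of 1 sample, so p-values measure only the spread between these samples, which may be technical. Library totals were 562446 to 1177972 counts on genes, and a count of 0 allows up to 2.55 to 5.33 CPM (counts scaled to a common library total), for counting error only.

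Padi4 itself had 590 and 527 counts in unstimulated WT libraries and 166 and 234 in WT libraries given R848. In Padi4 KO it had 40 and 54 counts at rest and 34 and 21 with R848, so both genotypes bore out their labels. Among 13 neutrophil markers, 12 were in the table and all 12 had counts (S100a9 had the most in every library), while Ly6g was not analysed here.

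Beta2 integrins are paired receptors on leukocytes. The common beta2 chain, CD18 (Itgb2), joins the alpha chain CD11a (Itgal) to form LFA-1 or CD11b (Itgam) to form Mac-1. Both bind ICAM-1, and Mac-1 also binds complement fragment iC3b and fibrinogen. Neutrophils first roll on selectins through the mucin PSGL-1 (Selplg) and through CD44, then kindlin-3 (Fermt3) and talin bind the beta chain tail and switch the integrin to its binding form, and PECAM-1 (Pecam1) acts at endothelial junctions during passage through the vessel wall. Beta1 (Itgb1) pairs with a separate set of alpha chains and binds matrix proteins and VCAM-1. Inflammatory signals induce Icam1 in endothelium and in many leukocytes, largely through NF-kB.

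In the GENCODE annotation of GRCm38 (the assembly called mm10), Itgal (chr7:127296260-127335138) and Itgam (chr7:128062640-128118491) lie on the same strand of chromosome 7. Itgb2 lies at chr10:77530252-77565708, Icam1 at chr9:21015985-21028817, Itgb1 at chr8:128685654-128733200, Selplg at chr5:113818536-113832644, Cd44 at chr2:102811141-102901665, Fermt3 at chr19:6998958-7019469 and Pecam1 at chr11:106654217-106750628. Values cover all exons of a gene and do not separate its transcripts. The library kit does not mark strand, so reads of Icam1 and its antisense gene Gm47079, and of Fermt3 and the opposite-strand gene Trpt1, cannot be told apart where they overlap. Trpt1 itself had at most 2 counts in a library. Itgam overlaps Gm49368 on the same strand, and its counts are uncertain to that extent.

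Icam1 moved most of the 9 genes, and its promoter is shown for that reason. The 250 bases before its RefSeq start on the + strand of GRCm38.p6 (chr9:21015690-21015939) read as follows, with 2 motif matches in capitals.
Icam1: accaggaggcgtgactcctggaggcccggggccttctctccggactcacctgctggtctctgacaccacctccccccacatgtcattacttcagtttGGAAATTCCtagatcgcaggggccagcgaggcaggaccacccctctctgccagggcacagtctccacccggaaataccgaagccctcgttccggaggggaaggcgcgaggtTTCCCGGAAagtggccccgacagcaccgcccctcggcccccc
The first match (GGAAATTCC, NF-kB) runs from position -153 to -145 and the next (TTCCCGGAA, STAT) from -42 to -34, counted back from the start. Searched on both strands, the NF-kB letters were found in 0.286% and the STAT letters in 0.268% of 32851 promoter windows of this length. Both strings were set by hand and searched as exact letters, and other forms of either motif were not searched. The shares, matches and absences therefore concern these letters only. RefSeq windows were at hand for 5 of the 9 genes, and those of Itgam, Itgb1, Cd44 and Fermt3 held neither run of letters. A match describes the sequence and shows no binding.

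Icam1, Itgb1 and Itgal rose after R848 in both genotypes, by more than 2-fold and past a false discovery rate (FDR) of 0.1. They were the only 3 of the 9 genes to pass both criteria, in WT and in Padi4 KO alike. Of all genes tested, 18.0% passed both in WT and 16.9% in Padi4 KO. By the FDR alone, 6 of the 9 genes rose and 1 fell in WT, where 29.5% of all genes were called, and 6 rose in Padi4 KO, where 35.1% were called. With library size alone, 4 rose and 2 fell in WT, and 5 rose and 2 fell in Padi4 KO. Over the 9 genes the median log2 fold change came to 0.45 in WT and 0.73 in Padi4 KO, beside -0.17 and -0.030 over all genes tested. Levels below are CPM scaled by trimmed mean of M values (TMM), and fold changes are edgeR quasi-likelihood estimates with standard errors (SE) and Benjamini-Hochberg adjusted FDR.

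**Figure D1:**
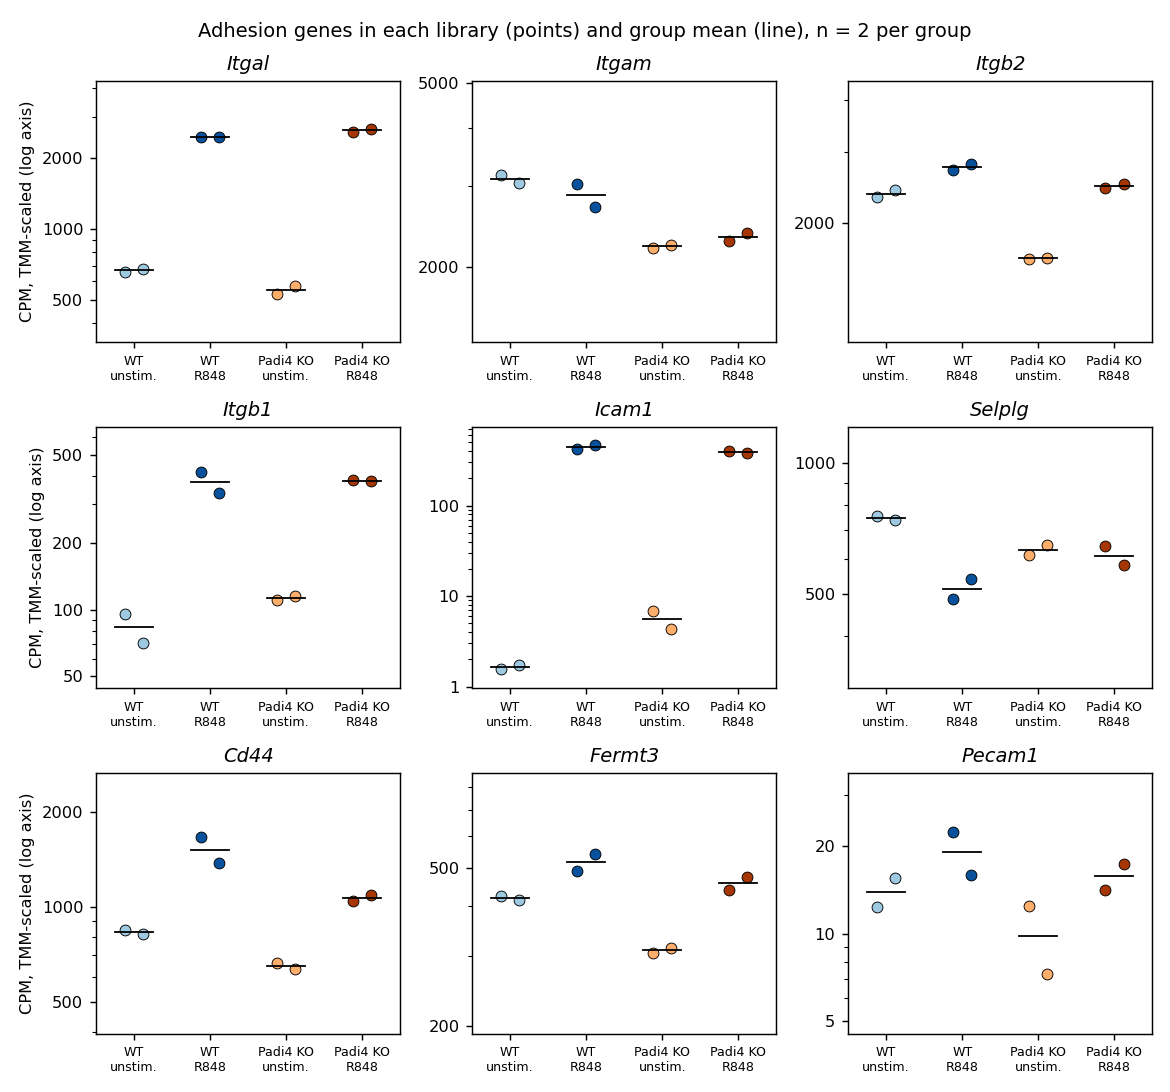
TMM-scaled CPM (log axis, scaled separately in each panel) of the 9 adhesion genes in each of the 8 libraries, with points for libraries and lines for group means. Itgal, Itgb1 and Icam1 are higher after R848 in both genotypes, Itgam is not, and Selplg is lower in WT, from 748 to 514 CPM.

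Itgal, the LFA-1 alpha chain, had 657 and 678 CPM in unstimulated WT libraries and 2470 and 2477 after R848. Unstimulated Padi4 KO libraries had 529 and 571 CPM of Itgal, and those with R848 2598 and 2666. No unstimulated library came near a stimulated library. The rise of Itgal was 3.71-fold in WT (log2 1.89 ± 0.081 SE, FDR = 4.46e-118) and 4.77-fold in Padi4 KO (log2 2.25 ± 0.075, FDR = 1.82e-192).

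Itgam, the Mac-1 alpha chain, stayed near its starting level. It had 3159 and 3034 CPM in unstimulated WT and 3031 and 2699 after R848, and 2201 and 2232 CPM in unstimulated Padi4 KO and 2279 and 2372 after R848. The log2 fold change of Itgam was -0.11 ± 0.069 in WT (FDR = 0.251, 95% interval -0.25 to 0.022) and 0.069 ± 0.067 in Padi4 KO (FDR = 0.492, interval -0.062 to 0.20). Both signs turned in other settings, and with library size alone Itgam was called lower in both genotypes, at -0.42 in WT (FDR = 1.97e-08) and -0.31 in Padi4 KO (FDR = 3.30e-05), and in WT also with edgeR's stricter filterByExpr filter (-0.17, FDR = 0.0343).

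The common chain Itgb2 had 2316 and 2415 CPM in unstimulated WT, 2709 and 2789 in WT with R848, 1640 and 1645 in unstimulated Padi4 KO, and 2440 and 2499 in Padi4 KO with R848. Stimulated libraries of each genotype were above their unstimulated counterparts. The log2 rise of Itgb2 was 0.22 ± 0.070 in WT (FDR = 0.0108), which turned to -0.090 with library size alone and missed the FDR without WT unstimulated library 1 (log2 0.19), and 0.59 ± 0.068 in Padi4 KO (FDR = 9.88e-17), which held in all 16 alternative settings.

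The balance of the alpha chains can be read within a library, where no scaling enters. Each unstimulated WT library held 4.81 and 4.48 Itgam counts for each Itgal count, against 1.23 and 1.09 after R848. In Padi4 KO the ratio was 4.16 and 3.91 unstimulated and 0.877 and 0.890 after R848, so among these libraries Itgal counts exceeded Itgam counts only in Padi4 KO with R848. The log2 ratio moved by -2.004 in WT and -2.19 in Padi4 KO. Over all 8 libraries the move was -2.10 (two-sided exact permutation test of 4 against 4 libraries, p = 0.0286, the smallest that 70 arrangements can give). Each library was a unit in all exact tests here, which presumes that the libraries of a group are separate samples.

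**Figure D2:**
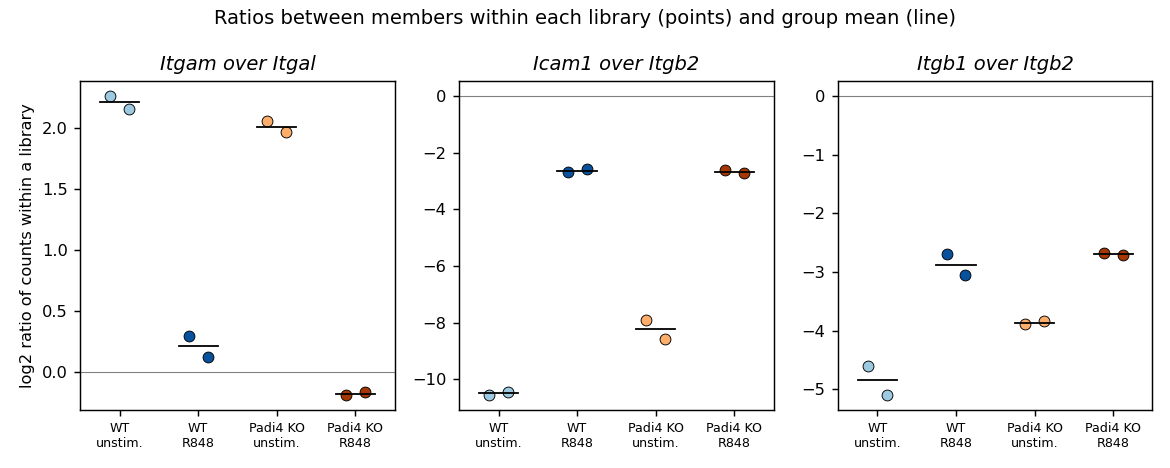
log2 ratios of counts within each library for Itgam over Itgal, Icam1 over Itgb2 and Itgb1 over Itgb2, with points for libraries and lines for group means. In all 3 panels the 4 stimulated libraries lie apart from the 4 unstimulated libraries.

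Icam1 went from barely detected to a moderate level. Single counts (1 and 1) were found in the unstimulated WT libraries and 6 and 6 in unstimulated Padi4 KO, against 208 and 262 in WT and 447 and 410 in Padi4 KO after R848. On the CPM scale these were 1.64 ± 0.13 (SD, n = 2) and 5.57 ± 1.72 at rest, and 444 ± 27.6 and 387 ± 14.5 after R848. As a ratio of summed counts per total, the rise was 221-fold in WT (95% exact interval 60.9 to 1831, counting error only) and 56.2-fold in Padi4 KO (32.0 to 109). At rest the ratio of Padi4 KO to WT was 3.97 (0.884 to 36.5), an interval that includes 1. After R848 the ratio was 1.009 (0.900 to 1.13), again per library total. With TMM the fitted log2 difference of Icam1 after R848 was -0.20 ± 0.10 (FDR = 0.209), and with RLE factors (relative log expression) it was called lower in Padi4 KO at -0.30 (FDR = 0.0245). Icam1 counts rose against Itgb2 counts by 7.87 on the log2 scale in WT and 5.57 in Padi4 KO (both genotypes together 6.72, exact p = 0.0286).

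Itgb1 had 95.9 and 70.7 CPM in unstimulated WT and 418 and 336 after R848, and 111 and 115 CPM in unstimulated Padi4 KO and 384 and 380 after R848. All 4 stimulated libraries were above all 4 unstimulated libraries. The rise of Itgb1 was 4.47-fold in WT (log2 2.16 ± 0.15, FDR = 7.41e-43) and 3.38-fold in Padi4 KO (log2 1.76 ± 0.11, FDR = 4.16e-52). Against Itgb2 it rose by 1.97 and 1.17 on the log2 scale (both genotypes 1.57, exact p = 0.0286).

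Selplg, the selectin ligand, fell in WT. It had 756 and 740 CPM in unstimulated WT and 486 and 542 after R848, and 615 and 646 CPM in unstimulated Padi4 KO and 643 and 581 after R848. The WT groups were apart and the Padi4 KO groups overlapped. The log2 fold change of Selplg was -0.54 ± 0.097 in WT (FDR = 3.13e-07), held in all 16 alternative settings, and was -0.046 ± 0.082 in Padi4 KO (FDR = 0.735). With library size alone the Padi4 KO value was -0.42 and past the FDR, as it was at -0.25 with thinned counts, -0.18 without WT R848 library 1 or 2 and -0.26 without Padi4 KO R848 library 1.

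Cd44, the hyaluronan receptor, had 841 and 821 CPM in unstimulated WT and 1664 and 1371 after R848, and 661 and 632 CPM in unstimulated Padi4 KO and 1046 and 1089 after R848. Its rise was 1.82-fold in WT (log2 0.86 ± 0.083, FDR = 4.84e-24) and 1.65-fold in Padi4 KO (log2 0.73 ± 0.077, FDR = 1.70e-19), and both held in all 16 alternative settings. In each condition both Padi4 KO libraries were below both WT libraries.

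Fermt3, which encodes kindlin-3, had 424 and 416 CPM in unstimulated WT, 492 and 543 in WT with R848, 305 and 314 in unstimulated Padi4 KO, and 441 and 474 in Padi4 KO with R848. Its rise was 1.24-fold in WT (log2 0.31 ± 0.11, FDR = 0.0194) and 1.47-fold in Padi4 KO (log2 0.56 ± 0.093, FDR = 2.31e-08). Neither passed with library size alone, where the WT value was -0.0001. Pecam1 was close to the detection limit, with 8 to 19 counts in every library. Its mean was 13.9 ± 2.23 CPM in unstimulated WT, 19.2 ± 4.61 in WT with R848, 9.84 ± 3.66 in unstimulated Padi4 KO and 15.8 ± 2.29 in Padi4 KO with R848 (SD, n = 2). No Pecam1 comparison passed the FDR with all libraries, and a change was not detectable at this depth. Without Padi4 KO unstimulated library 1 its rise in Padi4 KO passed (log2 1.1, FDR = 0.087).

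Per kilobase of exon sequence, Itgb2 was the most abundant of the 9 transcripts in every group, followed by Itgam. In unstimulated WT the level of Itgb2 was 775 CPM per kb and that of Itgam 616, followed by Selplg (175), Cd44 (123), Itgal (102), Fermt3 (72.6), Itgb1 (20.4), Pecam1 (2.24) and Icam1 (0.375). Neighbours in this order were apart in unstimulated WT. Unstimulated Padi4 KO had the same order, with Pecam1 and Icam1 overlapping. After R848 Itgal ranked next to Itgam, at 377 CPM per kb beside 570 in WT and 401 beside 463 in Padi4 KO, and Cd44 ranked above Selplg in both genotypes. Icam1 stood at 102 CPM per kb in WT, where it overlapped Itgb1 (92.5), which in turn overlapped Fermt3 (89.5). When lengths were limited to coding sequence, Itgal ranked above Itgam and Selplg above Cd44 in Padi4 KO with R848, and Fermt3 above Itgal in both unstimulated groups.

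The next comparison was whether the R848 response differed between genotypes. In the difference of responses, Selplg, Itgb2 and Itgal passed the FDR, all toward a higher value in Padi4 KO (3 of 9 genes, where 4.69% of all genes were called). The difference was 0.49 ± 0.13 on the log2 scale for Selplg (FDR = 0.00716), 0.37 ± 0.098 for Itgb2 (FDR = 0.00915) and 0.36 ± 0.11 for Itgal (FDR = 0.038). The other 6 genes did not pass, with values from -1.82 ± 0.90 for Icam1 (95% interval -3.58 to -0.054) to 0.31 ± 0.64 for Pecam1.

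The calls differed between scalings, as did the median of all genes. Among 6912 genes with 10 or more mean counts, the median difference was 0.18 with TMM, 0.11 with library size alone and 0.024 with RLE factors, and 73.2% of the genes called were higher with TMM beside 40.7% with RLE. Relative to the TMM median, the difference was 0.31 for Selplg, 0.19 for Itgb2 and 0.18 for Itgal. Selplg (0.42, FDR = 0.0468) and Itgb2 (0.30, FDR = 0.0765) were also called higher with library size alone, and Itgal was not (0.29, FDR = 0.178). With counts thinned to the depth of the smallest library, none of the 3 was called (0.13, 0.094 and 0.14), and Cd44 was called lower (-0.48, FDR = 0.00958). With edgeR and RLE factors, 0 of the 9 genes passed the FDR, and 5 had an unadjusted p below 0.05. With DESeq2, 0 passed and 2 had an unadjusted p below 0.05. With RLE factors the differences were 0.34, 0.22 and 0.21. With any 1 of the 4 R848 libraries left out none of the 3 genes was called, with values of 0.15 to 0.35 for Selplg, 0.077 to 0.17 for Itgb2 and 0.084 to 0.15 for Itgal. Itgal was also lost without WT unstimulated library 2 (0.34) or Padi4 KO unstimulated library 1 (0.30). Without WT R848 library 2, Cd44 (-0.50) and Itgb1 (-0.79) were called instead, with a smaller response in Padi4 KO.

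**Figure D3:**
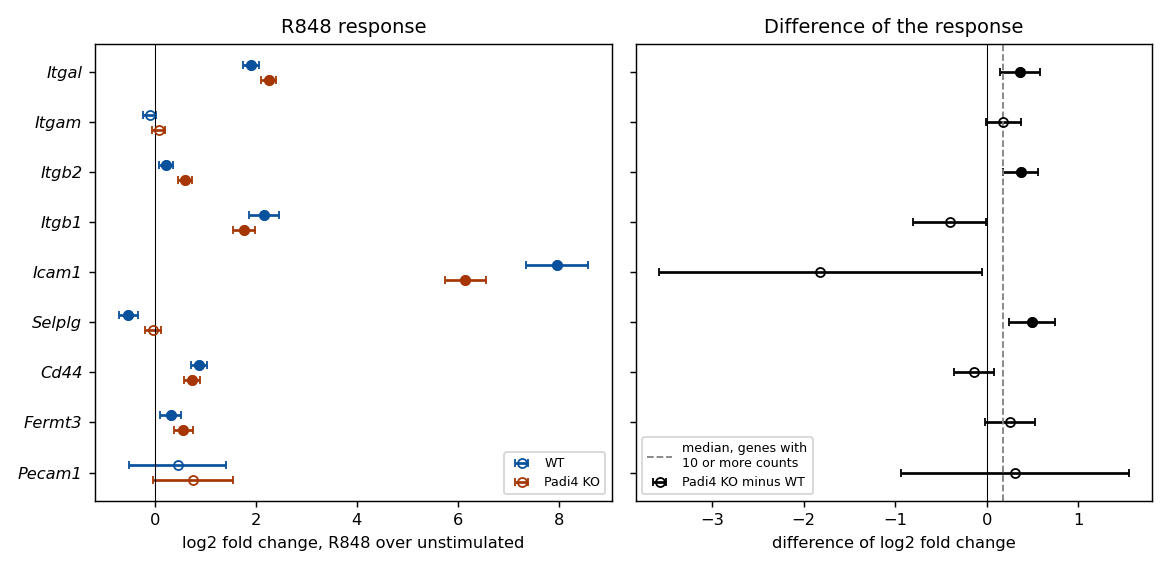
Left, log2 fold change of R848 over unstimulated for each gene in WT (blue) and Padi4 KO (brown); right, the difference of these log2 fold changes, Padi4 KO minus WT, with the median over genes with 10 or more mean counts (dashed, 0.18). Points are TMM estimates, bars 95% intervals and filled points FDR below 0.1, and the 3 filled points at right were no longer called with RLE factors, while 2 of them were with library size alone.

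At rest, Padi4 KO neutrophils had lower levels of 6 of the 9 genes than WT, and 1 gene was higher (7 of 9 called, where 24.0% of all genes were called). Itgb2 was 1.44-fold lower (log2 -0.53 ± 0.070, FDR = 4.54e-12) and Itgam 1.40-fold lower (log2 -0.48 ± 0.068, FDR = 7.36e-11), and both calls held in all 16 alternative settings. Fermt3 was 1.35-fold lower (log2 -0.44 ± 0.10, FDR = 3.03e-04) and Cd44 1.29-fold lower (log2 -0.37 ± 0.084, FDR = 1.88e-04), both lost with library size alone, at -0.15 and -0.078, and Cd44 also with thinned counts (-0.19). Itgal (log2 -0.27 ± 0.086, FDR = 0.0108) and Selplg (log2 -0.24 ± 0.086, FDR = 0.0276) were also lower, but turned to 0.014 and 0.043 with library size alone and were not called with DESeq2 (-0.22 and -0.19). With any 1 of the 4 R848 libraries left out, which share in the scaling, Itgal was at -0.15 to -0.12 and Selplg at -0.115 to -0.0955, and neither was called. Both were also lost without Padi4 KO unstimulated library 1 (-0.21 and -0.20), and Selplg without WT unstimulated library 1 (-0.23). Itgb1 was 1.35-fold higher (log2 0.43 ± 0.17, FDR = 0.0635), a call lost with DESeq2 (0.49, FDR = 0.179) and without WT unstimulated library 2 (0.24) or Padi4 KO unstimulated library 2 (0.41). The median of the 9 genes was -0.37, beside -0.16 among genes with 10 or more mean counts. Among 12 neutrophil markers, 11 were lower in this comparison and the median was -0.645. With library size alone 1 gene was higher and 2 were lower, and 77.2% of all calls were higher in Padi4 KO beside 39.8% with TMM. In such bulk samples fewer cells of a type and less RNA per cell cannot be told apart.

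After R848, Cd44 and Itgam remained lower in Padi4 KO, and Selplg was higher (3 of 9 genes called, where 17.3% of all genes were called). Cd44 was 1.42-fold lower (log2 -0.50 ± 0.077, FDR = 3.02e-09), in all 16 alternative settings past the FDR, and was the gene of the 9 with the largest fall in this comparison. Itgam was 1.23-fold lower (log2 -0.30 ± 0.068, FDR = 2.29e-04), a call lost with library size alone at -0.081. Selplg was 1.19-fold higher (log2 0.25 ± 0.093, FDR = 0.0543), lost with RLE factors at 0.15 and with any 1 of the 4 R848 libraries left out (0.033 to 0.25). Itgal differed by 0.089 ± 0.070 (FDR = 0.497, 95% interval -0.047 to 0.23), a sign that turned with RLE factors (-0.0093), whereas with library size alone Itgal was called higher in Padi4 KO (0.31, FDR = 2.80e-04). Itgb2 differed by -0.16 ± 0.069 (FDR = 0.126), which passed with RLE factors at -0.25 and with any 1 of the 4 R848 libraries left out (-0.32 to -0.21). Without WT R848 library 1, 5 of the 9 genes were called, with Icam1 (-0.41) and Fermt3 (-0.39) among them. With RLE factors 5 of the 9 genes were called, all lower in Padi4 KO, and over all genes 42.1% of calls were higher beside 54.6% with TMM and 81.8% with library size alone.

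**Figure D4:**
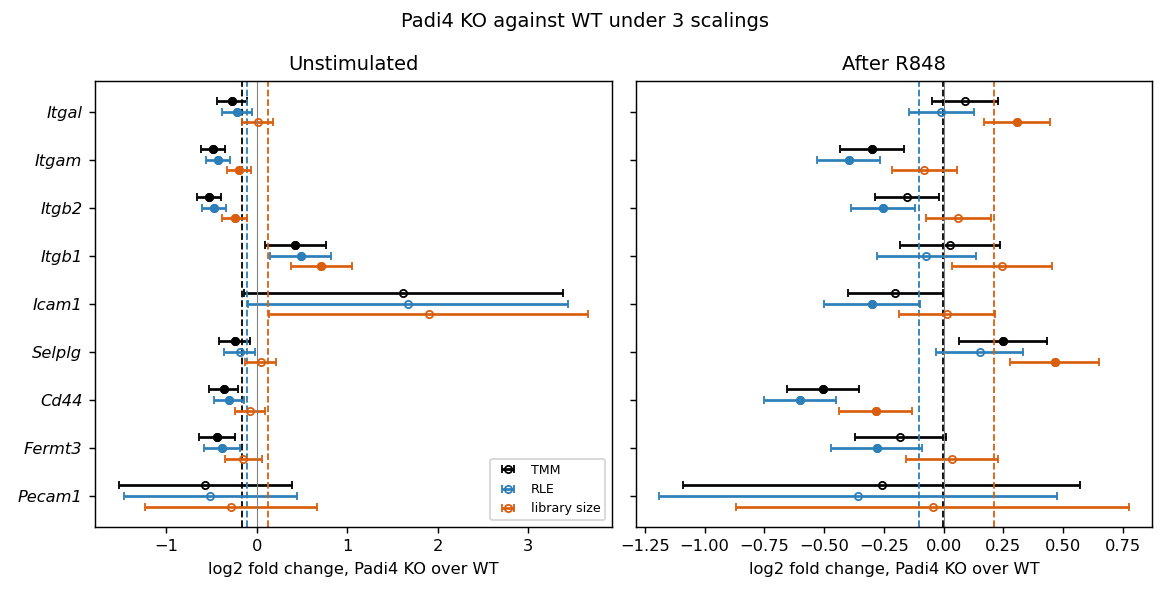
log2 fold change of Padi4 KO over WT for each gene, unstimulated (left) and after R848 (right), under TMM (black), RLE (blue) and library-size (orange) scaling, with 95% bars, filled points at FDR below 0.1 and dashed lines for the median of genes with 10 or more mean counts. Itgam and Itgb2 at rest and Cd44 in the R848 panel are filled and negative under all 3 scalings, whereas Itgal and Selplg at rest change sign with library size.

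Sums of cell type markers differed with genotype and treatment. The sums are CPM of the library total without TMM factors, whereas the counts of markers called come from the TMM fit. The neutrophil markers summed to 154400 to 160100 CPM in unstimulated WT and 125300 to 127100 in unstimulated Padi4 KO, and to 147000 to 160200 and 118500 to 119500 after R848, with 11 of 12 lower in Padi4 KO at rest and 10 of 12 after R848. The median log2 fold change of the 12, Padi4 KO over WT with TMM, was -0.645 at rest and -0.623 after R848. With TMM factors the neutrophil sums were 149800 to 158600 CPM in unstimulated WT, 173900 to 199500 in WT with R848, 100200 to 102900 in unstimulated Padi4 KO and 123500 to 125000 in Padi4 KO with R848, so that they were higher after R848 on this scale and not on the other. Erythroid markers (9 of 16 with counts, the hemoglobin genes at 0 in every library) summed to 94.2 to 98.3 CPM in unstimulated WT, 19.4 to 23.0 in WT with R848, 1016 to 1033 in unstimulated Padi4 KO and 1230 to 1269 in Padi4 KO with R848, with 8 of 9 higher in Padi4 KO at rest and 9 of 9 after R848. Monocyte and macrophage markers (12 of 12 with counts) summed to 574 to 606, 3006 to 3104, 1254 to 1277 and 3104 to 3177 CPM with the groups in the same order, and after R848 the TMM-scaled sums were 3674 to 3743 in WT and 3234 to 3324 in Padi4 KO, the opposite order of genotypes. By single genes 4 of the 12 rose and 4 fell after R848 in WT, and 4 rose and 5 fell in Padi4 KO, with medians of -1.21 and -1.32 on the log2 scale. The higher sum lay largely in Adgre1, at 26 and 22 counts in unstimulated WT and 1240 and 1332 after R848, and at 35 and 47 and 2091 and 1892 in Padi4 KO. Between genotypes 7 of the 12 were higher and 1 lower in Padi4 KO at rest, and 4 and 2 after R848. Endothelial and stromal markers, of which the endothelial ones bear on Icam1 and Pecam1, summed to less after R848 (201 to 242 and 20.9 to 23.0 CPM in WT, 546 to 692 and 31.4 to 38.8 in Padi4 KO). In each genotype 3 of 8 tested were lower after R848. The sums lay largely in the collagen genes Col1a1 (at rest 73 and 54 counts in WT, 172 and 316 in Padi4 KO) and Col1a2 (63 and 50, 187 and 397). Of the endothelial genes, Vwf had 13 and 6 counts at rest in WT and 20 and 31 in Padi4 KO. Emcn was at 0 in every library and Cdh5 at 0 in all but 1, which had 1 count. Megakaryocyte and platelet markers (10 of 10 with counts) summed to 208 to 314 CPM in unstimulated WT, 75.4 to 77.7 in WT with R848, 368 to 376 in unstimulated Padi4 KO and 99.3 to 107 in Padi4 KO with R848. After R848 6 of the 10 fell and 0 rose in WT, and 5 fell and 1 rose in Padi4 KO, while 2 were higher and 0 lower in Padi4 KO in each condition. Lymphocyte markers (9 of 12 with counts) summed to at most 32.8 CPM in every library, with Cd3e and Cd8a at 0 throughout. The part of these cells in the differences of the 9 genes was not tested.

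Around these 9 genes, 9 lists of adhesion genes with 167 members were examined, of which 152 had enough counts to be tested. After R848, 25 rose and 20 fell by more than 2-fold in WT (29.6% of those tested, beside 18.0% of all genes), and 37 rose and 18 fell in Padi4 KO (36.2%, beside 16.9%). By library size alone these counts were 18 and 24 in WT and 19 and 28 in Padi4 KO. The largest rises in both genotypes were of Cd14, the lipopolysaccharide co-receptor, Adgre1, which encodes F4/80, and Itga5, the fibronectin receptor alpha chain that pairs with beta1. Cd14 went from 13.4 to 2852 CPM in WT and from 25.8 to 1364 in Padi4 KO, and Adgre1 from 39.1 to 2444 and from 36.8 to 1798. Itga5 rose 18.2-fold in WT (log2 4.19 ± 0.29, FDR = 1.63e-44) and 11.95-fold in Padi4 KO (log2 3.58 ± 0.19, FDR = 6.34e-75), in the same direction as its partner Itgb1.

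Among integrins with the steepest falls, Itgb7 went from 75.2 to 9.87 CPM in WT and from 100.4 to 11.7 in Padi4 KO (FDR = 1.68e-13 and 4.98e-36), and Itga6 from 36.9 to 1.91 and from 22.8 to 6.32 (FDR = 4.30e-09 and 1.30e-05). The WT libraries with R848 had 1 and 10 counts of Itgb7, and its log2 fall of -2.84 in WT became -1.95 without the first and -5.02 without the other. In Padi4 KO its fall of -3.07 became -3.71 without R848 library 1. Mcam (CD146) had 15 and 14 counts in WT at rest and 0 and 1 after R848, while Padi4 KO libraries had 58 and 89 at rest and 2 and 1 after R848. Podxl, a sialomucin, had 34 and 70 counts in unstimulated Padi4 KO and at most 1 count in every other library. Its ratio of Padi4 KO to WT at rest was 68.8 (95% exact interval 12.1 to 2744). Mcam and Podxl were low-count genes present mainly in unstimulated Padi4 KO libraries, where the endothelial and stromal marker sum was also highest. That sum lay largely in Col1a1 and Col1a2.

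Itgb2l and Itgax were picked after their values were seen, because they share a receptor family with the 9 genes. The former, a paralog of Itgb2, had 880 and 780 counts in unstimulated WT and 471 and 529 after R848, and it fell in both genotypes (log2 -0.51 ± 0.083 in WT, FDR = 7.99e-09, and -0.42 ± 0.078 in Padi4 KO, FDR = 8.64e-07) while Itgb2 did not. Itgax, the CD11c alpha chain, rose from 18.8 to 61.9 CPM in WT (log2 1.71 ± 0.33, FDR = 2.94e-06) and from 9.92 to 47.0 in Padi4 KO (log2 2.13 ± 0.29, FDR = 6.15e-12), the latter at 2.77 without Padi4 KO unstimulated library 2.

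Of the list genes that differed between genotypes at rest, most lay in the 2 lists of integrin signalling. Of 33 tested genes of integrin activation and linkage, 22 were lower and 1 higher in unstimulated Padi4 KO, and of 26 outside-in signalling genes 19 were lower and 0 higher. The medians of the 2 lists were -0.49 and -0.44 among their genes with 10 or more mean counts. In the same comparison the neutrophil markers had a median of -0.645 and the erythroid markers 3.13. The part of cell types in the differences of list genes was not tested. Over all lists 64 were lower and 7 higher, 46.7% of those tested, beside 24.0% of all genes. With library size alone the calls were 19 lower and 16 higher. Of the 152 tested list genes 118 had 10 or more mean counts, beside 6912 of all 12254. Shares of list genes and of the 9 genes were not matched for counts in any comparison with all genes. The named falls at rest were of Vcam1 (log2 -1.63 ± 0.32, FDR = 6.37e-06), Cd200r1 (log2 -1.34 ± 0.38, FDR = 0.00399) and the tetraspanin Cd63 (log2 -0.93 ± 0.14, FDR = 1.22e-09), and the named rises were of Podxl, Mcam and the proteoglycan Vcan (log2 1.95 ± 0.44, FDR = 1.38e-04). Vcam1 (-0.96), Cd200r1 (-1.06) and Vcan (1.24) were not called without WT unstimulated library 1, nor Cd200r1 with DESeq2 (-1.29), and Vcan was at 3.16 without WT unstimulated library 2.

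After R848, 33 of the list genes were lower in Padi4 KO and 12 higher (29.6%, beside 17.3% of all genes), against 13 lower and 25 higher with library size alone. Vcam1 was again lower (log2 -1.31 ± 0.20, FDR = 1.41e-09), as were Ncam1 (log2 -1.31 ± 0.43, FDR = 0.0224) and Cd14 (log2 -1.06 ± 0.072, FDR = 1.25e-45). Vcan (log2 1.79 ± 0.29, FDR = 3.10e-08), the membrane protease gene Mmp14 (log2 1.58 ± 0.28, FDR = 8.98e-07) and Parvb, a linker of integrins to actin (log2 1.27 ± 0.52, FDR = 0.0852), were higher. Parvb was not called with any 1 of the 4 R848 libraries left out (0.91 to 1.5) or with DESeq2 (1.19), RLE factors (1.17) or thinned counts (1.11), nor Ncam1 without WT R848 library 1 (-1.29). In the difference of responses 14 of the 152 genes were higher and 4 lower (11.8%, beside 4.69% of all genes), against 3 higher and 6 lower with RLE factors and 8 higher and 4 lower with library size alone.

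The genes whose levels followed each member most closely over the 8 libraries were read from the correlation of log2(CPM + 1) among 2918 other genes (2919 for Pecam1) with 50 or more mean counts. They were Ubash3b and Gpr84 for Itgal (both r = 0.997), Gbe1 (0.972) and Arhgdib (0.971) for Itgam, and Fgd3 for Itgb2 (0.990). For Icam1 they were Esd (1.000) and Cd274 (0.998), and for Itgb1 Ifitm2 (0.994) and Cd274 (0.993). For Selplg they were Pip5k1c (0.958) and Calm3 (0.951), for Cd44 Sgms2 (0.995) and Cybb (0.992), for Fermt3 Mob3a (0.991) and Mocos (0.989), and for Pecam1 Smad2 (0.965) and Cpsf7 (0.952). The libraries share 4 groups and the scaling, and 360 genes exceeded 0.95 with Itgal, and the values are a description of these libraries.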

How the data were processed

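RNA was sequenced in paired ends on a MiSeq from kits that do not mark strand. Per the submitters' processing notes the tools were FastQC 0.11.7, cutadapt 1.16, STAR 2.5.3a and HTSeq 0.6.1p1 with build mm10. The values the authors deposited are raw counts per gene symbol without normalization. The annotation and strand setting were not given in the sources used here. HTSeq's summary lines stayed out of library sizes and tests, and 87.0% to 89.5% of each library lay on genes.

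Members and lists were chosen with earlier results of these data known. Genes with at least 1 count in 2 libraries, the filter of the study, were fitted together (edgeR 4.0.16, robust quasi-likelihood, TMM, 4 group means), whereas the study used the DESeq2 Wald test, and p-values were adjusted over all 12254. SE is the size of the log2 fold change over the root of F. The biological coefficient of variation was 4.7%. Single ratios were tested by exact permutation (SciPy 1.17.1). Other list genes were named when among the 3 largest rises or falls of a comparison with 10 or more mean counts. Replicate pairs differed by 1.05 to 1.67 times sampling noise (chi-square per degree of freedom, genes with 10 or more counts over the pair). The fit was also run on simulated counts as a check of the code, with the outcome not reported here. Alternatives were DESeq2 1.42.0, other filters and scalings, a replicate block, separate models, thinned counts, an FDR of 0.05 and each library left out. Some genes that these rules name are not reported here.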

Additional observations from a re-analysis of the deposited data

Results flagged for a closer look

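Differences of the R848 response between genotypes (Padi4 KO minus WT, log2) drew attention because a test of the difference itself passed an FDR of 0.1 with edgeR. Among the 9 genes these were Itgal at 0.363, Itgb2 at 0.371 and Selplg at 0.494. None of these 3 calls held with RLE factors (0.208, 0.216 and 0.338) or with DESeq2 (0.209, 0.216 and 0.341), where the median of all genes was also nearer 0. Itgb2 (0.301) and Selplg (0.421) were called with library size alone and Itgal (0.292) was not, and with thinned counts none of the 3 was.

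Among the other adhesion genes, the differences for Cd14 at -2.07, Slc3a2 (the CD98 heavy chain) at -1.23 and Plaur (the urokinase receptor) at -0.818 held in all 15 alternative settings, with Cd14 at -2.82 without WT unstimulated library 2. Pik3r5, the p101 adaptor of phosphoinositide 3-kinase gamma, at 1.02 also held in all 15, at 0.616 and FDR = 0.0999 with thinned counts. Pik3cg, its catalytic subunit, at 0.769 held in 13 of 15, and the protease gene Adam19 at 0.761 in 8 of 15. Pik3cg was lost with thinned counts (0.354) and without Padi4 KO R848 library 1 (0.498). Adam19 was lost with DESeq2 (0.612), RLE factors (0.605) and thinned counts (0.35), and without WT unstimulated library 1 (0.697), WT R848 library 1 (0.14) or either Padi4 KO R848 library (0.464 and 0.589). Pik3r5 counts were 153 and 124 in unstimulated WT, 116 and 131 in WT with R848, 119 and 210 in unstimulated Padi4 KO and 339 and 334 in Padi4 KO with R848.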

How the results depend on the processing

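The number of the 9 genes called in the difference of responses was 3 with edgeR and TMM, 0 with DESeq2, 0 with RLE factors, 2 with library size alone (Itgb2 and Selplg, both higher), 1 with thinned counts (Cd44, lower, and none of the 3), and 0 to 3 when each library was left out. Between unstimulated genotypes it was 7, with 4 by DESeq2, 3 with library size alone, 4 with thinned counts and 5 to 6 with libraries left out. After R848 it was 3, with 5 under RLE factors, 5 with thinned counts and 3 to 5 with libraries left out. Of the other adhesion genes, 18 were called in the difference of responses, with 6 by DESeq2, 9 under RLE factors, 9 with thinned counts and 6 to 18 with libraries left out, and 71 between unstimulated genotypes, with 39 by DESeq2 and 35 with library size alone (57 to 66 with libraries left out). Settings for these other genes were chosen after seeing the data. In the R848 response of each genotype the number called, both directions together, stayed within 1.5 times in every setting run for the 9 genes and for the other adhesion genes. Over all genes it fell with DESeq2 from 1659 higher and 1961 lower to 1285 and 979 in WT, and from 2353 and 1945 to 1206 and 915 in Padi4 KO. The split moved with library size alone: 25 rises and 20 falls of the other adhesion genes in WT became 18 and 24, 37 and 18 in Padi4 KO became 19 and 28, and 2 of the 9 genes fell in each genotype where 1 and 0 had. The cause of these shifts was not tested.

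Signs turned for some values, among them calls of the main fit (Itgb2 and Fermt3 in WT, and Itgal and Selplg between unstimulated genotypes). Itgam in WT became 0.0265 with thinned counts and 0.00695 with separate models, and in Padi4 KO -0.0152 (DESeq2), -0.0153 (RLE), -0.308 (library size) and -0.0847 (thinned). In the difference Itgam became -0.111 and Fermt3 -0.0203 with thinned counts. With library size alone, Itgb2 (-0.0896) and Fermt3 (-0.0001) in WT, Itgal (0.0139) and Selplg (0.043) between unstimulated genotypes, and Itgb2 (0.0613), Icam1 (0.0135) and Fermt3 (0.0331) between genotypes after R848 turned. After R848 the genotype difference also turned for Itgal (-0.00929 DESeq2, -0.00934 RLE, -0.0403 thinned) and Itgb1 (-0.0761, -0.0724, -0.0977). With libraries left out, Itgam ranged from -0.142 to 0.0673 in WT, -0.0882 to 0.0823 in Padi4 KO and -0.126 to 0.211 in the difference, where Fermt3 ranged from -0.087 to 0.274 and Pecam1 from -0.157 to 0.65. After R848, Itgal ranged from -0.0571 to 0.094 and Itgb1 from -0.211 to 0.0403 between genotypes. Of 1313 values of single genes under other settings, 1162 kept their direction and side of the threshold, 80 lost it, 31 gained it and 40 turned.

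Deviations of same-numbered libraries correlated at -0.00889 to 0.0355 over 2919 genes. Duplicates differed by 1.05 to 1.67 times sampling noise, which is independent between libraries, so these low correlations cannot exclude a pairing. With a replicate block 7 and 6 genes were called in the WT and Padi4 KO responses, 3 in their difference, 7 between unstimulated genotypes and 4 after R848, where Itgb2 (-0.155) was added at FDR = 0.0975. Depth limits Pecam1 and unstimulated Icam1.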
